A study of Mus musculus with 12 samples.

Results

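The genes described here are 32 genes of endoplasmic reticulum (ER) chaperones and the unfolded protein response, measured in whole spinal cord of mice. They were taken as a fixed list of symbols, and all 32 were found among the 38924 genes of the tables and passed the filter on low counts that left 17765 genes for testing. The 12 RNA-seq libraries come from mice of strain background B6J.Cg aged 8 weeks, and are labelled wild type (WT) or Gars C201R/+, that is, with 1 changed copy of the gene of glycyl-tRNA synthetase. No treatment is named in the labels. The titles give 4 groups of 3 libraries, C201R female, C201R male, WT female and WT male. The library name in the description gives another genotype than the title in 4 libraries: libraries 4 and 9 have WT in the title and C201R in the name, and the reverse holds for libraries 11 and 12. Genotype was therefore compared by title (6 against 6), by library name (6 against 6), and in the 8 undisputed libraries, C201R libraries 1, 2, 3 and 10 against WT libraries 5, 6, 7 and 8. The 3 comparisons share libraries, and where a value is given under fewer than 3 of them the sentence says which.

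The unfolded protein response is the cell's answer to protein that fails to fold in the ER. Its sensors Ern1 (IRE1), Atf6 and the kinase PERK are held in check by the chaperone Hspa5 (BiP). When freed, IRE1 splices the mRNA of the transcription factor Xbp1, ATF6 is cut into a transcription factor, and PERK slows translation and raises Atf4. Xbp1 and ATF6 act on genes of chaperones, disulfide isomerases and ER-associated degradation, which returns misfolded protein to the cytosol. Neurons and myelinating glia of the spinal cord make much membrane and secreted protein, and this response is often examined in motor neuron disease.

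Sums of estimated counts ran from 27175421 to 38271405 a library. The defining markers of spinal cord were present in every library, with summed levels of 22251 to 28869 TPM (a level per transcript length) for 5 oligodendrocyte genes and 3351 to 3647 TPM for 8 neuron genes. Xist, the RNA of the inactive X chromosome, was at 522 to 685 CPM (counts scaled for library size by TMM) in libraries 1, 2, 3, 8, 11 and 12 and at most 0.22 CPM in the other 6, which differs from the titled sex in 6 libraries. Titled sex was nevertheless the term in the fits, and no library was regrouped. By title, high Xist fell on C201R libraries 1, 2, 3, 11 and 12 and on WT library 8. In the undisputed libraries it fell on C201R libraries 1, 2 and 3 and on WT library 8. By name it fell on C201R libraries 1, 2 and 3 and on WT libraries 8, 11 and 12. Sex as read from Xist is thus not balanced over genotype by title or in the undisputed libraries. The libraries also fall into 6 with high mt-Atp8 (41138 to 53782 TPM, libraries 1, 2, 3, 5, 7 and 8) and 6 with low mt-Atp8 (16698 to 24359 TPM). This split was seen in the data and is not a labelled batch. Each set holds 3 C201R libraries by title and 3 by name. In whole tissue, fewer cells of a type and less RNA per cell cannot be told apart.

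Per length, the lectin chaperone Calr was the most abundant of the 32, at 351 ± 38.2 TPM (SD, n = 12). Its membrane-bound relative Canx followed at 330 ± 18.5 TPM, the Hsp90 chaperone Hsp90b1 at 265 ± 24.1 TPM and Hspa5 at 205 ± 37.4 TPM. Calr and Canx do not differ beyond their spread. The isomerases Pdia3 (151 ± 12.7 TPM) and P4hb (120 ± 8.11 TPM) came next. At the low end stood the sensor Ern1, at 5.35 ± 0.358 TPM, and the degradation factor Derl3, at 1.21 ± 0.27 TPM. In CPM, the spread over all 12 libraries was widest for Derl3 (coefficient of variation 22.1%), Sdf2l1 (20.4%), Creld2 (20.1%), Hspa5 (17.6%) and Manf (14.9%). It was narrowest for Atf6 (2.41%) and the translocon channel Sec61a1 (2.73%). A gene as scarce as Derl3 carries more counting noise, whereas Hspa5 and Manf are well covered.

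**Figure D1:**
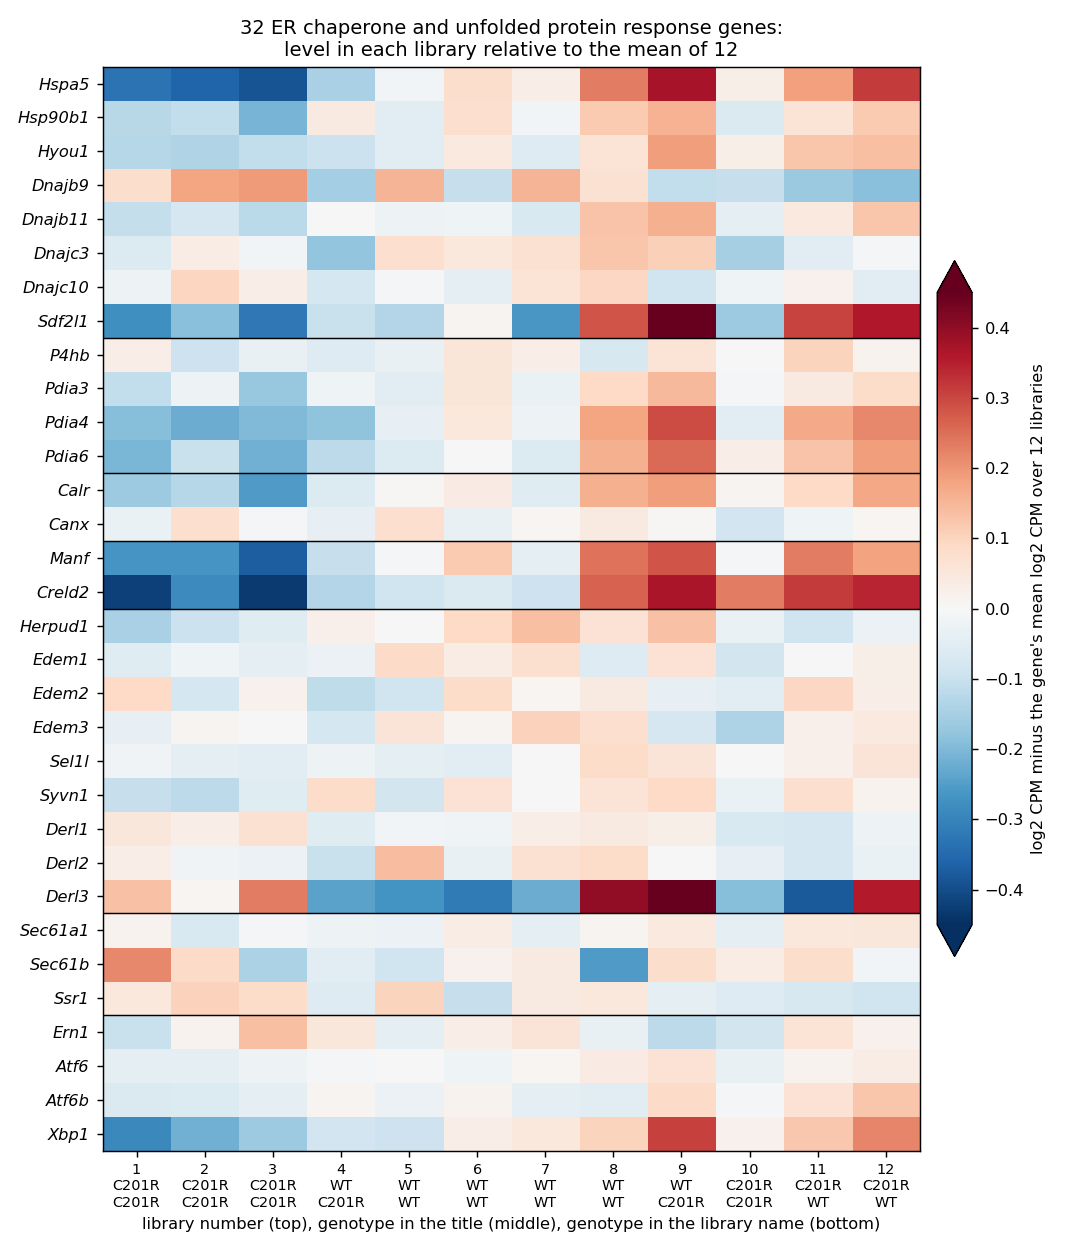
Each row is a member, grouped by role, and each column a library with both genotype labels below, and colour is log2 CPM minus the gene's mean over 12 libraries. Libraries 1 to 3 are blue and library 9 is red across most chaperone rows, and Dnajb9 and Ssr1 show the opposite order.

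Many of these genes carry the ER stress response element, the site read by ATF6 and XBP1 together with NF-Y, and the sequences are shown because they mark the members by a feature that no expression value was used to find. RefSeq promoters (GRCm38.p6, 250 bases before to 50 after the start) were matched for 27 of the 32 members. The element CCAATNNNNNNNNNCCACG (ERSE) was searched on both strands and found in 9 members, and the related ATTGGNCCACG (ERSE-II) in 2. Together 11 of 27 members held one (40.7%), against 49 of 27025 genes in the table (0.181%). The members were listed as genes of this response, so the higher share describes the list and is not separate support. The 12 elements are given below as they read from their CCAAT or ATTGG end, with the fixed bases in capitals and the free spacer in lower case.
Hspa5 ERSE: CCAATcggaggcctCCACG
Hsp90b1 ERSE: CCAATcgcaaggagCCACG
Hsp90b1 ERSE: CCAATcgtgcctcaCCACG
Dnajb11 ERSE-II: ATTGGcCCACG
Dnajc3 ERSE: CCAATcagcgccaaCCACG
Pdia6 ERSE: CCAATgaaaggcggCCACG
Calr ERSE: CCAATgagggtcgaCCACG
Canx ERSE: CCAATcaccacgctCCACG
Creld2 ERSE: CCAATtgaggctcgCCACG
Herpud1 ERSE-II: ATTGGgCCACG
Syvn1 ERSE: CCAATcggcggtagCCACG
Derl3 ERSE: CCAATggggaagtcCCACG

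The promoters of 2 of these genes are shown in full up to the start. They are the first 2 by unadjusted edgeR p in the comparison by library name, Dnajc3 (0.0184) and Hspa5 (0.0437). Calr, the next in that order (0.0709), is not shown. The element is in capitals. Hspa5 (chr2:34771840-34772089, plus strand) has its element 65 bases before the RefSeq start, and Dnajc3 (chr14:118937682-118937931, plus strand) 105 bases before.
Hspa5: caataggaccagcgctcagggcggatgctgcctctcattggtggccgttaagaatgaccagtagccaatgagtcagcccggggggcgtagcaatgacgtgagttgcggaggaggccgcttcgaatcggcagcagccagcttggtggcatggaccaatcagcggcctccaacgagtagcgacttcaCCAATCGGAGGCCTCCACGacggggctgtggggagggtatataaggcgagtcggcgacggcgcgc
Dnajc3: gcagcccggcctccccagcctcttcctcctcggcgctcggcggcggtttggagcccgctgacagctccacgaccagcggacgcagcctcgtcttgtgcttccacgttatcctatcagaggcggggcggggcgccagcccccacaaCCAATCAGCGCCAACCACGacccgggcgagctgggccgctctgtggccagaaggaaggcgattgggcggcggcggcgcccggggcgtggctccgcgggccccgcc

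No member passed the test by genotype under any of the 3 groupings. By title, 0 of 32 members and 0 of 17765 genes were called by edgeR (0%), and 1 member, Herpud1, had an unadjusted p under 0.05 where 6.77% of all genes did (3.28% with C201R lower). By library name, 0 members were called while 0.715% of genes were, and 5 members (15.6%) had an unadjusted p under 0.05 and a lower level in C201R, against 6.81% of genes, and none had one with a higher level (5.98% of genes). In the undisputed libraries 0 members were called against 0.163% of genes, and 10 members (31.2%) had an unadjusted p under 0.05 and a lower level, against 6.96% of genes, and again none with a higher level (6.01%). DESeq2 called 1 member in each of the 3 comparisons: Herpud1 by title, Edem3 by name and Hsp90b1 in the undisputed libraries, or 3.12% of members each time, where it called 0.132%, 1.98% and 1.5% of the genes it tested. Limma with voom and quality weights called 0, 0 and 2 members (Hspa5 and Herpud1), where it called 0%, 0.912% and 1.5% of genes.

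Most point estimates nonetheless lay on the same side. In C201R 23 of 32 members were lower by title, where 49.3% of all genes were, 28 by name (49.1% of genes) and 27 in the undisputed libraries (47.9%). The median log2 difference of the members was -0.04 by title, -0.06 by name and -0.08 in the undisputed libraries, beside medians of all genes of 0.00, 0.00 and 0.01. By title this direction turned without libraries 1 to 3, where 13 of 32 members were lower with a median of 0.02, and within the 6 libraries with low mt-Atp8, where 14 were lower with a median of 0.01. By name 27 of 32 were lower without libraries 1 to 3 and 25 in the low set, with medians of -0.02 and -0.04. Members are not independent of each other, so these counts describe the list. No member was higher in C201R with an unadjusted p under 0.05 in any of the 3 groupings.

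Markers of some other cell types also leaned to 1 side. Under each of the 3 groupings all 7 red cell genes, all 8 tested leukocyte genes and all 5 tested fat genes were higher in C201R, with 0 called by edgeR in each list. No leukocyte or fat gene had an unadjusted p under 0.05 in any grouping, whereas 2, 1 and 2 red cell genes did. Of 7 tested genes of B cells and antibody-secreting cells 5 were higher under each grouping, with 0 called. Among them 4, 1 and 4 had an unadjusted p under 0.05, where 3.48%, 5.98% and 6.01% of all genes were so and higher. 1 lower gene of that list had one each time. These counts are by title, by name and in the undisputed libraries. Summed fat genes were at 632 TPM in library 3 and at most 58.3 TPM elsewhere, and the highest leukocyte sum, 512 TPM, was in WT library 6. Other lists were mixed: by title, by name and in the undisputed libraries 5, 0 and 4 of 6 Schwann cell genes and 5, 3 and 3 of 8 neuron genes were higher. Summed red cell genes ranged from 1638 to 10105 TPM in C201R and 1516 to 4671 TPM in WT by title, and from 2219 to 10105 and 1516 to 4195 TPM by name. Endothelial and pericyte genes were higher for 7 of 7 by title, 6 of 7 by name and 7 of 7 in the undisputed libraries, and fibroblast and meningeal genes for 9, 5 and 9 of 9, again with 0 called. In the same order 2, 2 and 2 endothelial and pericyte genes and 2, 0 and 2 fibroblast and meningeal genes had an unadjusted p under 0.05, all higher. Among 5 motor neuron genes 3 were lower under each grouping, and Chat, the acetylcholine synthesis enzyme, was called by name (-0.45 ± 0.06, edgeR adjusted p = 0.00431) and in the undisputed libraries (-0.53 ± 0.06, adjusted p = 0.0168). The part of these cells in the members' differences was not tested.

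**Figure D2:**
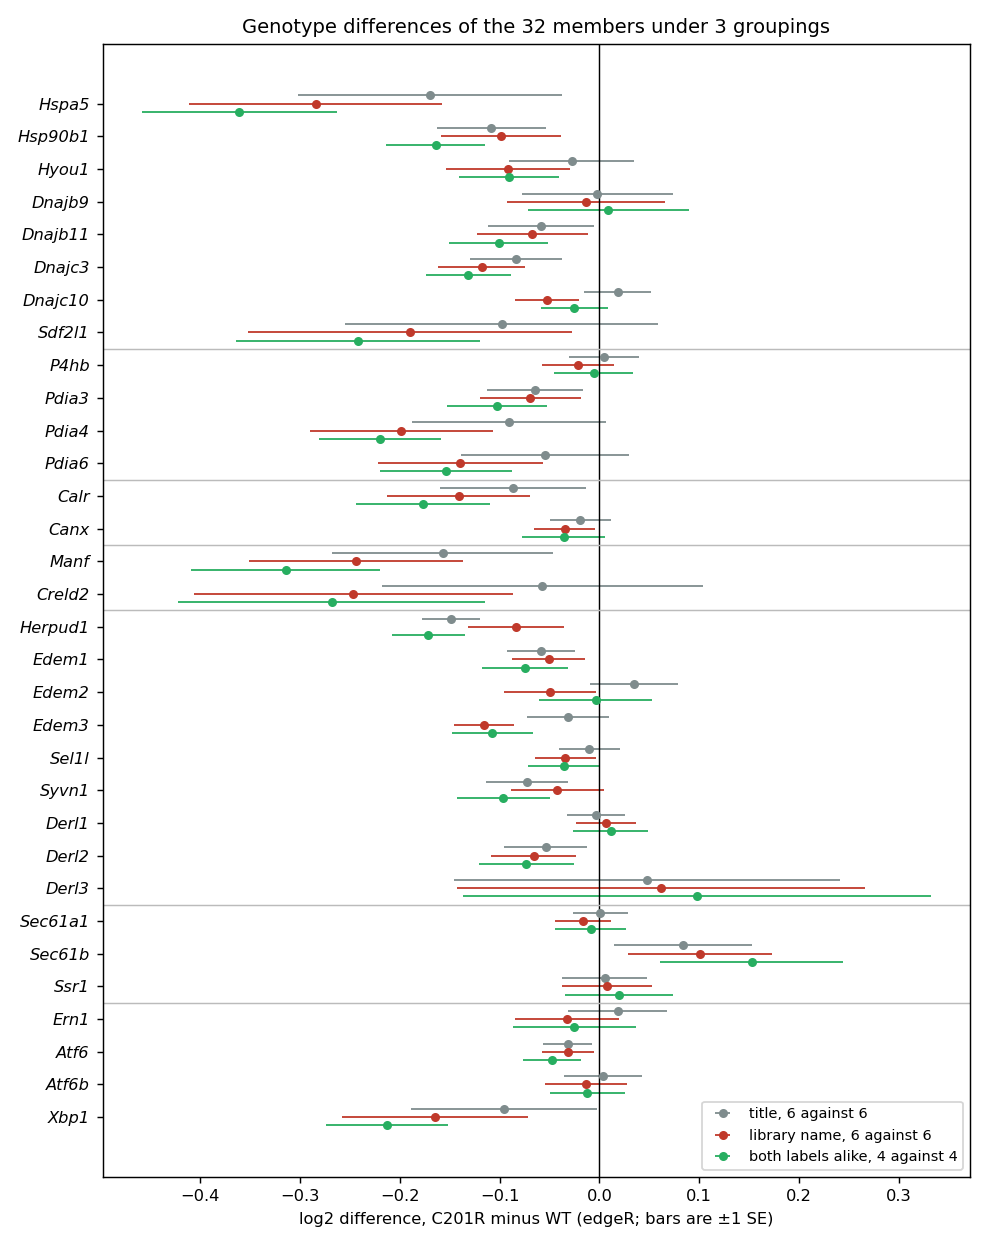
Points are edgeR log2 differences (C201R minus WT) of the 32 members under the title, the library name and the undisputed libraries, with bars of 1 SE. Most points lie left of 0, Hspa5 furthest at -0.36 in the undisputed libraries, and none passed the adjusted threshold.

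Among the Hsp70 and Hsp90 chaperones, Hspa5 had the largest difference of the list. It lies on chromosome 2, 34771970 to 34777547, plus strand in the GENCODE M21 annotation, whose build (GRCm38) is used for all gene positions here. Hspa5 stood at 198, 194, 191 and 254 CPM in the undisputed C201R libraries 1, 2, 3 and 10 and 248, 264, 255 and 293 CPM in the undisputed WT libraries 5 to 8. The disputed libraries 4, 9, 11 and 12 had 226, 322, 284 and 310.2 CPM. Libraries 1 to 3 were the 3 lowest of all 12, while library 10, which carries the same 2 labels, lay within the WT range. For this chaperone the log2 difference (C201R minus WT) was -0.36 ± 0.10 (SE) in the undisputed libraries, -0.28 ± 0.13 by name and -0.17 ± 0.13 by title, with edgeR adjusted p = 0.181, 0.374 and 0.864. The 95% interval ran from -0.58 to -0.14 in the undisputed libraries and from -0.46 to 0.12 by title.

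Hsp90b1 (GRP94), the ER form of Hsp90 (chromosome 10, 86690209 to 86705509, minus strand), read 335, 338, 316 and 349 CPM in the undisputed C201R libraries 1, 2, 3 and 10 and 353, 385, 362 and 396 CPM in the undisputed WT libraries 5 to 8. In libraries 4, 9, 11 and 12 it read 375, 407, 381 and 397 CPM. The undisputed groups did not overlap, and with the disputed libraries added they did under either label. On the fitted scale the log2 difference (C201R minus WT) of Hsp90b1 was -0.16 ± 0.05 (SE) in the undisputed libraries, -0.10 ± 0.06 by name and -0.11 ± 0.05 by title, with edgeR adjusted p = 0.221, 0.536 and 0.766. In the annotation Gm15344 and Gm25745 overlap Hsp90b1 on the same strand, so its count is uncertain to that extent.

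Dnajc3 (p58IPK), a J protein that hands clients to BiP and also inhibits PERK (chromosome 14, 118937976 to 118981697, plus strand), was found at 79.2, 84.5, 82.0 and 74.5 CPM in the undisputed C201R libraries 1, 2, 3 and 10 and 87.2, 85.5, 86.7 and 90.1 CPM in the undisputed WT libraries 5 to 8. Its disputed libraries 4, 9, 11 and 12 held 73.1, 89.1, 80.1 and 82.2 CPM. These undisputed groups did not overlap either, and library 4 was the lowest of the 12. In the fits the log2 difference (C201R minus WT) of Dnajc3 was -0.13 ± 0.04 (SE) in the undisputed libraries, -0.12 ± 0.04 by name and -0.08 ± 0.05 by title, with edgeR adjusted p = 0.248, 0.281 and 0.792. The other members of this class gave smaller or noisier differences: in the undisputed libraries Hyou1, the nucleotide exchange factor of BiP, was at -0.09 ± 0.05, the J protein Dnajb11 at -0.10 ± 0.05, and its partner Sdf2l1 at -0.24 ± 0.12 (log2 difference ± SE). The J protein Dnajb9 was at 0.01 ± 0.08 and the disulfide reductase Dnajc10 at -0.03 ± 0.03, and none of these 5 had an unadjusted p under 0.05 by genotype.

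Protein disulfide isomerases form and reshuffle the disulfide bonds of new proteins. Pdia4 (chromosome 6, 47796141 to 47813430, minus strand) measured 44.3, 43.3, 44.1 and 48.9 CPM in the undisputed C201R libraries 1, 2, 3 and 10 and 49.3, 52.3, 49.8 and 57.2 CPM in the undisputed WT libraries 5 to 8, without overlap. In libraries 4, 9, 11 and 12 Pdia4 measured 44.6, 62.1, 56.9 and 58.8 CPM. Library 9, WT by title and C201R by name, was the highest of all and library 4, with the same labels, was among the lowest. Across groupings the log2 difference (C201R minus WT) of Pdia4 was -0.22 ± 0.06 (SE) in the undisputed libraries, -0.20 ± 0.09 by name and -0.09 ± 0.10 by title, with edgeR adjusted p = 0.193, 0.389 and 0.911. Without library 9 the comparison by name called Pdia4, at -0.26 with an edgeR adjusted p of 0.0481, beside 1.24% of genes.

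Pdia6 (chromosome 12, 17266545 to 17284770, plus strand) measured 64.3, 69.1, 63.9 and 75.7 CPM in the undisputed C201R libraries 1, 2, 3 and 10 and 71.1, 74.1, 71.0 and 82.9 CPM in the undisputed WT libraries 5 to 8. Its disputed libraries 4, 9, 11 and 12 measured 68.3, 88.4, 81.1 and 84.5 CPM. Library 10 lay above 3 of the 4 WT libraries, so the groups overlapped. Here the log2 difference (C201R minus WT) of Pdia6 was -0.15 ± 0.07 (SE) in the undisputed libraries, -0.14 ± 0.08 by name and -0.05 ± 0.08 by title, with edgeR adjusted p = 0.374, 0.525 and 0.945. The 2 abundant isomerases showed less: P4hb was at -0.01 ± 0.04 and Pdia3 at -0.10 ± 0.05 in the undisputed libraries (log2 difference ± SE).

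The lectin chaperones hold newly glycosylated proteins until they are folded. Calr (chromosome 8, 84841850 to 84846934, minus strand) was at 244, 249.95, 229 and 275 CPM in the undisputed C201R libraries 1, 2, 3 and 10 and 274, 279.7, 263 and 305 CPM in the undisputed WT libraries 5 to 8. Libraries 4, 9, 11 and 12 had Calr at 262, 311, 290.4 and 308 CPM. Its 3 lowest libraries were again 1, 2 and 3. For Calr the log2 difference (C201R minus WT) was -0.18 ± 0.07 (SE) in the undisputed libraries, -0.14 ± 0.07 by name and -0.09 ± 0.07 by title, with edgeR adjusted p = 0.317, 0.441 and 0.885. Canx, which lacks such a pattern, was at -0.04 ± 0.04 in the undisputed libraries and ranged from 436 to 488 CPM over the 12.

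Manf, a small ER protein that binds BiP and is also secreted (chromosome 9, 106838312 to 106891979, minus strand), was at 26.9, 26.9, 25.0 and 32.1 CPM in the undisputed C201R libraries 1, 2, 3 and 10 and 32.1, 35.1, 31.4 and 38.3 CPM in the undisputed WT libraries 5 to 8. Its disputed libraries 4, 9, 11 and 12 were at 30.1, 39.3, 37.8 and 36.6 CPM. Library 10 exceeded 2 of the WT libraries, and the other 3 C201R libraries were below every WT library. For Manf the log2 difference (C201R minus WT) was -0.31 ± 0.09 (SE) in the undisputed libraries, -0.24 ± 0.11 by name and -0.16 ± 0.11 by title, with edgeR adjusted p = 0.224, 0.367 and 0.85. In the annotation Manf overlaps Rbm15b on the same strand, so reads of the 2 may be divided. Creld2, another secreted protein of ER stress, was at -0.27 ± 0.15 in the undisputed libraries, -0.25 ± 0.16 by name and -0.06 ± 0.16 by title, with edgeR adjusted p = 0.512, 0.573 and 0.982.

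Of the degradation factors, Herpud1 separated the libraries by title, and Edem3 came close to doing so by library name. Herpud1 (chromosome 8, 94386438 to 94395377, plus strand) is a membrane scaffold of the Syvn1 and Sel1l ubiquitin ligase. It gave 54.2, 56.1, 57.7 and 58.7 CPM in the undisputed C201R libraries 1, 2, 3 and 10 and 60.1, 63.8, 65.9 and 62.7 CPM in the undisputed WT libraries 5 to 8. Disputed libraries 4 and 9, titled WT, gave 60.9 and 65.7 CPM, and libraries 11 and 12, titled C201R, gave 56.4 and 59.0 CPM. By title the 6 C201R libraries (54.2 to 59.0 CPM, mean 57.0 ± 1.82 SD) lay below all 6 WT libraries (60.1 to 65.9 CPM, mean 63.2 ± 2.42 SD), which was so for 1 of 32 members and 0.186% of all genes (0.349% did not overlap in either direction). By name the groups overlapped, from 54.2 to 65.7 and from 56.4 to 65.9 CPM. Correspondingly the log2 difference (C201R minus WT) of Herpud1 was -0.17 ± 0.04 (SE) in the undisputed libraries, -0.08 ± 0.05 by name and -0.15 ± 0.03 by title, with edgeR adjusted p = 0.119, 0.511 and 0.542. Herpud1 overlaps Gm15890 on the other strand, and whether the counting used strand is not given in the sources used here.

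Edem3, a mannosidase-like protein that marks misfolded glycoproteins for degradation (chromosome 1, 151755371 to 151822051, plus strand), gave 68.9, 71.3, 70.8 and 64.2 CPM in the undisputed C201R libraries 1, 2, 3 and 10 and 73.6, 71.2, 76.0 and 74.5 CPM in the undisputed WT libraries 5 to 8. Libraries 4, 9, 11 and 12 gave 66.9, 67.1, 71.8 and 72.9 CPM. By name the C201R libraries ranged from 64.2 to 71.3 CPM and the WT libraries from 71.2 to 76.0 CPM, so that the groups met at their edges. By title they overlapped widely, at 64.2 to 72.9 and 66.9 to 76.0 CPM. In numbers, the log2 difference (C201R minus WT) of Edem3 was -0.11 ± 0.04 (SE) in the undisputed libraries, -0.12 ± 0.03 by name and -0.03 ± 0.04 by title, with edgeR adjusted p = 0.315, 0.115 and 0.933. With the mt-Atp8 set as a term, an alternative added after seeing the data, Edem3 was called by name at -0.11 ± 0.02 (edgeR adjusted p = 0.0274), beside 2.10% of genes.

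The remaining degradation factors and the translocon gave smaller effects or wider errors. In the undisputed libraries the mannosidase-like Edem1 was at -0.07 ± 0.04 and Edem2 at -0.00 ± 0.06, and the ligase components Sel1l and Syvn1 at -0.04 ± 0.04 and -0.10 ± 0.05 (log2 difference ± SE). The derlins, which help move clients across the membrane, were at 0.01 ± 0.04 (Derl1), -0.07 ± 0.05 (Derl2) and 0.10 ± 0.23 (Derl3). In the translocon, through which new proteins enter the ER, the channel Sec61a1 was at -0.01 ± 0.04, its subunit Sec61b at 0.15 ± 0.09 and the associated Ssr1 at 0.02 ± 0.05. Unadjusted p was above 0.05 for every one of these 10 genes by genotype.

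Of the sensors, Atf6 had the narrowest spread of the whole list. Atf6 (chromosome 1, 170704674 to 170867771, minus strand) read 56.9, 56.7, 57.6 and 57.1 CPM in the undisputed C201R libraries 1, 2, 3 and 10 and 58.6, 57.7, 58.9 and 60.05 CPM in the undisputed WT libraries 5 to 8. Its disputed libraries 4, 9, 11 and 12 read 58.3, 61.2, 59.1 and 59.9 CPM. The undisputed groups did not overlap, but the means of 57.0 ± 0.39 and 58.8 ± 0.953 CPM (SD, n = 4 each) differ by a small amount. Under the 3 groupings the log2 difference (C201R minus WT) of Atf6 was -0.05 ± 0.03 (SE) in the undisputed libraries, -0.03 ± 0.03 by name and -0.03 ± 0.02 by title, with edgeR adjusted p = 0.543, 0.678 and 0.864. Its relative Atf6b was at -0.01 ± 0.04 in the undisputed libraries. Ern1 (chromosome 11, 106394650 to 106487852, minus strand) read 15.2, 16.5, 17.9 and 15.4 CPM in the undisputed C201R libraries 1, 2, 3 and 10 and 15.8, 16.7, 17.0 and 15.9 CPM in the undisputed WT libraries 5 to 8. For Ern1 the disputed libraries 4, 9, 11 and 12 read 16.9, 15.0, 17.0 and 16.5 CPM. Groups of Ern1 overlapped throughout, and the log2 difference (C201R minus WT) of Ern1 was -0.03 ± 0.06 (SE) in the undisputed libraries, -0.03 ± 0.05 by name and 0.02 ± 0.05 by title, with edgeR adjusted p = 0.915, 0.855 and 0.979.

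Xbp1 (chromosome 11, 5520659 to 5525893, plus strand), both a target and an effector of the response, read 40.9, 43.1, 44.7 and 50.7 CPM in the undisputed C201R libraries 1, 2, 3 and 10 and 46.9, 51.1, 51.6 and 53.7 CPM in the undisputed WT libraries 5 to 8. The disputed libraries 4, 9, 11 and 12 read 47.1, 61.9, 54.4 and 58.3 CPM. Libraries 1 to 3 were lowest, as for Hspa5, and library 10 reached the WT range. For Xbp1 the log2 difference (C201R minus WT) was -0.21 ± 0.06 (SE) in the undisputed libraries, -0.16 ± 0.09 by name and -0.10 ± 0.09 by title, with edgeR adjusted p = 0.208, 0.503 and 0.907. Gene-level counts do not separate spliced from unspliced Xbp1 mRNA, so IRE1 activity was not measured.

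Over the 32 members, 5 had undisputed groups that did not overlap (Hsp90b1, Dnajc3, Pdia4, Herpud1 and Atf6), all lower in C201R, where 8.53% of all genes did not overlap and 4.71% did so with C201R lower. By name 0 members did, against 1.64% of genes.

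**Figure D3:**
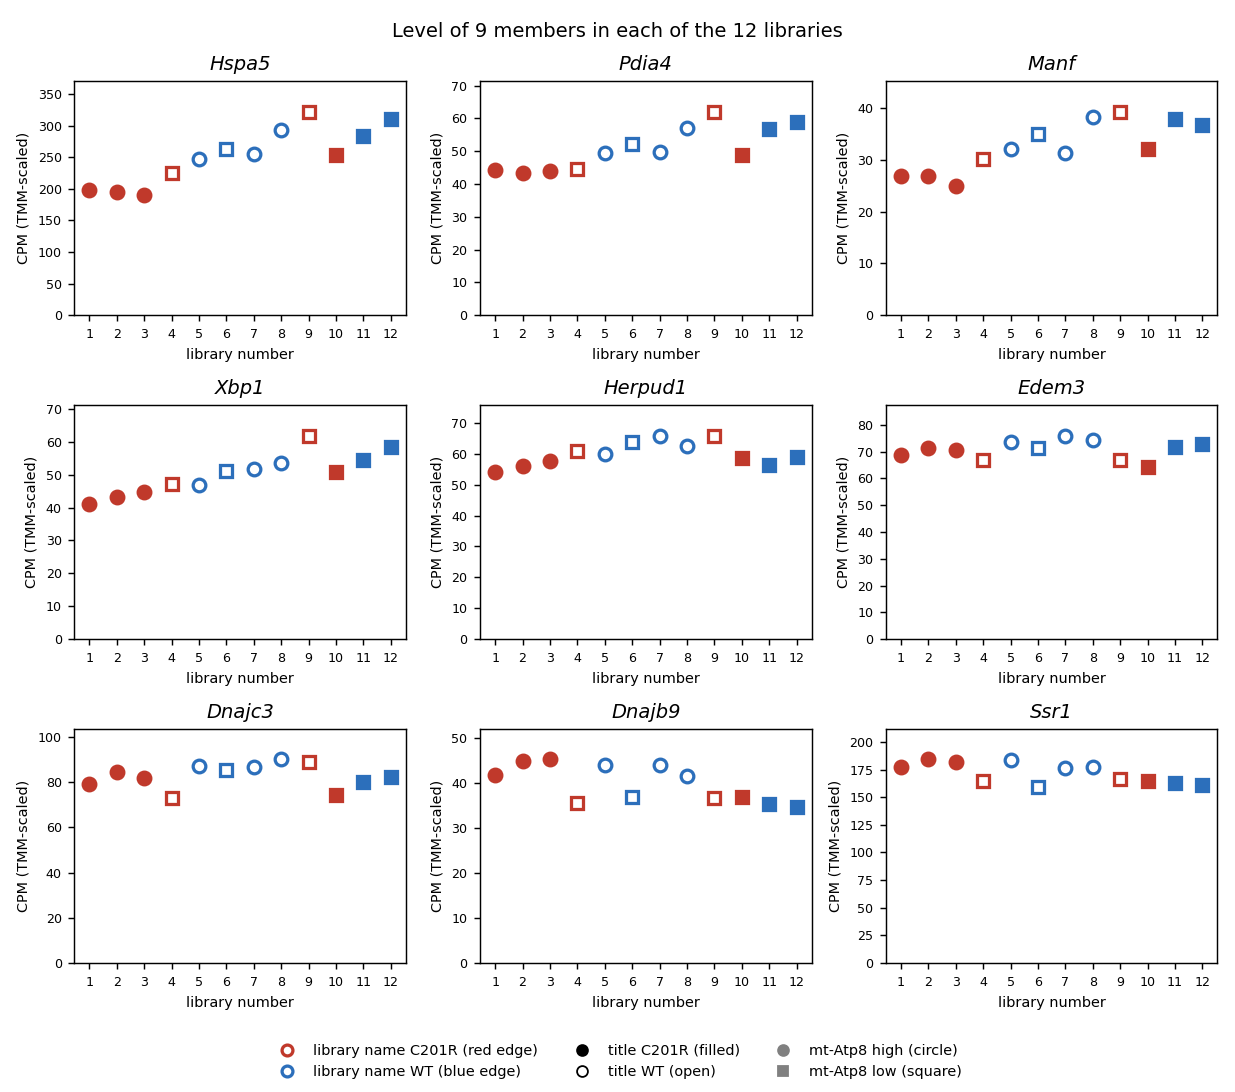
CPM of 9 members against the library number, with the edge colour for the library name, the fill for the title and the symbol for the mt-Atp8 set. Hspa5, Pdia4, Manf and Xbp1 are lowest in libraries 1 to 3, Herpud1 separates filled from open symbols, and Dnajb9 and Ssr1 separate circles from squares.

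Several chaperones followed the library number. The number runs from 1 to 12, and the labels do not say what it stands for. In a fit with library-name genotype and titled sex, 10 of 32 members were called by the slope (31.2%), against 6.38% of all genes. 8 had a higher level with the number (2.41% of genes were called higher) and 2 a lower one (3.97% were called lower). Creld2 had the steepest slope, 0.079 ± 0.011 log2 units per number (edgeR adjusted p = 0.0119), a fitted 1.83-fold from library 1 to library 12. Hspa5 rose by 0.059 ± 0.011 per number (adjusted p = 0.0199, edgeR), or 1.57-fold, and Xbp1 by 0.044 ± 0.0080 (adjusted p = 0.0174), or 1.40-fold. Also higher with the number were Hyou1 (0.029 ± 0.0054), Pdia6 (0.037 ± 0.0077), Pdia4 (0.039 ± 0.0095), Manf (0.045 ± 0.011) and Calr (0.030 ± 0.0076), with edgeR adjusted p between 0.0188 and 0.0399. Lower with it were the J protein Dnajb9 (-0.039 ± 0.0064, adjusted p = 0.0139) and the translocon protein Ssr1 (-0.019 ± 0.0048, adjusted p = 0.0428). The 8 genes that were higher include chaperones, isomerases, both secreted proteins and Xbp1, and none of the degradation factors was called.

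Libraries 1 to 3 lay at the low end of many of these genes. For 9 members (Hspa5, Hsp90b1, Hyou1, Dnajb11, Pdia4, Calr, Manf, Creld2 and Xbp1) they were the 3 lowest of the 12, which held for 719 of 17765 genes (4.05%). Library 9 was the highest for 15 of the 32 members. The share of all genes highest in library 9 was not counted, so this describes the list only. Without libraries 1 to 3, 0 members and 0 genes were called for the number, and 9 members (28.1%) had an unadjusted p under 0.05 against 11.2% of genes. The slopes of the 10 called members had the same signs in those 9 libraries: Creld2 was at 0.069 ± 0.014, Hspa5 at 0.042 ± 0.014, Pdia4 at 0.037 ± 0.014, Pdia6 at 0.035 ± 0.011, Xbp1 at 0.034 ± 0.012, Manf at 0.031 ± 0.015, Hyou1 at 0.028 ± 0.0085, Calr at 0.023 ± 0.0097, Ssr1 at -0.015 ± 0.0072 and Dnajb9 at -0.032 ± 0.0093, with edgeR adjusted p between 0.329 and 0.492. The 10 members were picked in a fit that held these 9 libraries too, so their shared signs are no separate support. The median slope of the 32 members was 0.010 without libraries 1 to 3 and 0.0088 with them. Without library 9 alone, 3 members were called (Hspa5, Creld2 and Xbp1), beside 0.343% of genes, and without titled sex in the fit 4 were (the same 3 and Hyou1), beside 0.383% of genes.

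The mt-Atp8 sets touch both the genotype and the number results. With the set as a term, 0 members were called for the number, and 1 gene in all (0.00563%). The slope of Hspa5 was then 0.044 ± 0.022 (edgeR adjusted p = 0.75) and that of Creld2 0.074 ± 0.023 (adjusted p = 0.624). Dnajb9 dropped to -0.012 ± 0.009, and Ssr1 turned to 0.0021 ± 0.0063. For these latter genes the 2 sets themselves did not overlap: Dnajb9 was at 41.5 to 45.3 CPM in the libraries with high mt-Atp8 and 34.8 to 36.9 CPM in those with low mt-Atp8, and Ssr1 at 176.0 to 184 against 159 to 166 CPM. Atf6b was the third such member, at 32.9 to 33.8 against 34.3 to 37.5 CPM. In all, 3 of 32 members (9.38%) did not overlap between the sets, against 5.08% of all genes. Hspa5 and Creld2 overlapped between the sets. Their slopes were 0.042 ± 0.027 and 0.071 ± 0.049 within the high set and 0.044 ± 0.018 and 0.072 ± 0.015 within the low set, with 0 members called in either (0% and 0.00563% of genes).

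Within the 6 libraries with high mt-Atp8 both genotype labels coincide, C201R libraries 1, 2 and 3 against WT libraries 5, 7 and 8. There Hspa5 averaged 194 ± 3.82 CPM in the former and 265 ± 24.2 CPM in the latter (SD, n = 3 each). This difference of -0.45 ± 0.06 on the log2 scale passed the test (edgeR adjusted p = 0.0334). It was the 1 member called, where 0.754% of genes were. In this set 15 members did not overlap, all lower in C201R, where 22.2% of genes did not overlap and 11.8% did so with C201R lower. They were Hspa5, Hsp90b1, Hyou1, Dnajb11, Dnajc3, Pdia4, Pdia6, Calr, Manf, Creld2, Herpud1, Edem3, Derl2, Atf6 and Xbp1. All 3 C201R libraries of this set are the libraries numbered lowest, so genotype and number cannot be told apart in it. They also had high Xist, as did WT library 8 (552 CPM), whereas WT libraries 5 and 7 were at 0.216 and 0.134 CPM. The fits within the mt-Atp8 sets held no sex term, so sex as read from Xist is not separated from genotype there either.

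The 6 libraries with low mt-Atp8 gave another picture. By title Hspa5 averaged 283 ± 27.9 CPM in C201R libraries against 271 ± 48.7 CPM in WT libraries (SD, n = 3 each), or 0.06 ± 0.12 on the log2 scale. By name the averages were 268 ± 49.7 and 286 ± 23.2 CPM, or -0.10 ± 0.12. No member was called there by title (0.00563% of genes) or by name (0.129%). By title 1 member did not overlap, Herpud1 (56.4 to 59.0 against 60.9 to 65.7 CPM), where 8.64% of genes did not. By name 3 members did not overlap, where 15.0% of genes did not: Edem3 (64.2 to 67.1 against 71.2 to 72.9 CPM) and Edem2 were lower in C201R, and Ssr1 was higher. Without libraries 1 to 3 the log2 difference of Hspa5 was smaller by name, at -0.08 ± 0.11 (edgeR adjusted p = 0.822), and turned by title, at 0.10 ± 0.10 (0.879). By name library 4, a C201R library at 226 CPM, also lay below every WT library, the lowest of which was at 248 CPM. Whether Hspa5 differs between the 2 sets of libraries in its response to genotype was not tested.

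**Figure D4:**
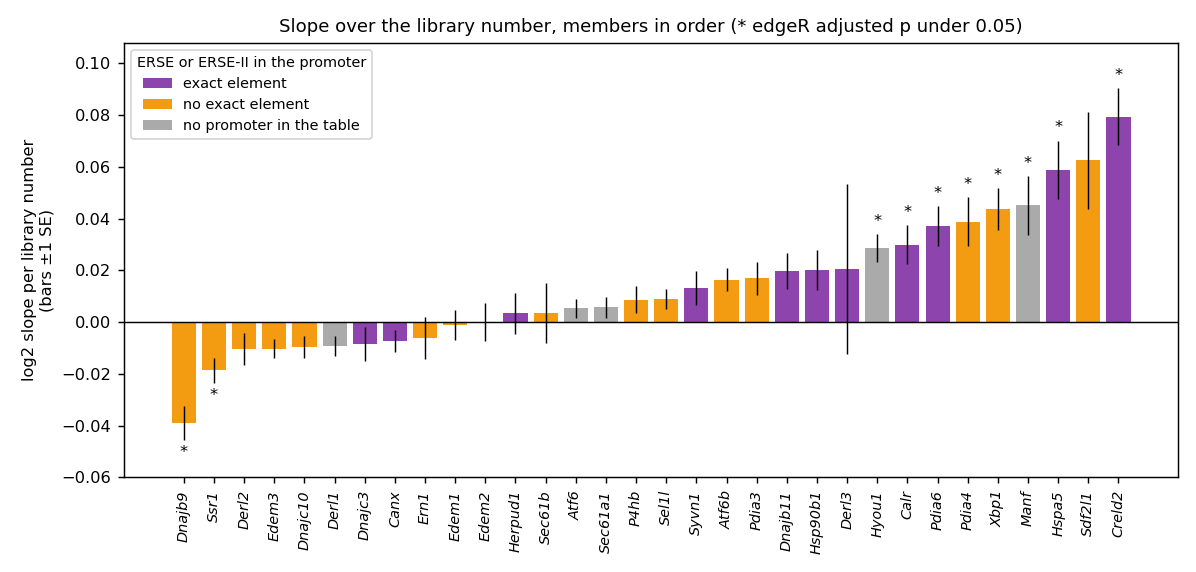
Bars are edgeR slopes in log2 units per library number for the 32 members, with bars of 1 SE, stars for adjusted p under 0.05 and colour for the promoter element. Creld2 is highest at 0.079, Dnajb9 lowest at -0.039, and bars with and without the element are mixed.

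Members with and without an element in their promoter can be set side by side. The median slope over the library number was 0.020 for the 11 members with ERSE or ERSE-II and 0.0018 for the 16 with a promoter but no exact element, and 4 members of each were called. Hspa5 and Dnajc3 both hold an exact ERSE, yet Hspa5 had a slope of 0.059 ± 0.011 and Dnajc3 of -0.0084 ± 0.0065 (edgeR adjusted p = 0.482). The median log2 difference with and without an element was -0.15 and -0.03 in the undisputed libraries, -0.10 and -0.05 by name and -0.07 and -0.01 by title. The element of the PERK arm, TGATGNAAT, was found on either strand in 0 of the 27 promoters and in 1.08% of genes. The site TGACGTGG was likewise in 0 members and in 0.714% of genes. These are matches of letters and not shown binding.

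Other cell types of the dissected tissue were read beside the number. All 7 red cell genes were lower with the number, where 50.5% of all genes were, and 4 were called, where 3.97% of all genes were called lower. Their summed level was 5152, 10105 and 3593 TPM in libraries 1, 2 and 3 and 1516 to 4671 TPM in the other 9. Leukocyte genes (8 of 8 tested), skeletal muscle genes (8 of 8), fat genes (5 of 5) and fibroblast and meningeal genes (9 of 9) were also lower with the number, with 0 called in each, and motor neuron genes were lower for 5 of 5 with 1 called, Slc5a7. Schwann cell genes went the other way, 6 of 6 higher with 0 called. In the list of B cells and antibody-secreting cells, the latter being rich in these chaperones, 6 of 7 tested genes were lower with the number and 0 were called. Its sum ran from 63.3 to 87.0 TPM, of which Ighm made up 52.9 to 79.8 TPM. Igkc, the kappa light chain, was at 10.8, 8.55 and 6.22 TPM in libraries 1, 2 and 3 and 1.22 to 6.84 TPM in the other 9. Cd79a was at 3.19, 2.45 and 1.77 TPM in libraries 1 to 3 and 0.42 to 2.38 TPM elsewhere. Ighg2b was listed at 0 in 8 of the 12 libraries. The part of any of these cells in the chaperone slopes was not tested.

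The titled sexes were compared through the difference of their genotype effects (male minus female, each of them C201R minus WT by title). Hspa5 was at 198, 284 and 310.2 CPM in C201R female, 226, 248 and 264 CPM in WT female, 194, 191 and 254 CPM in C201R male and 255, 293 and 322 CPM in WT male. No gene was called for this difference (0%), and 7 members had an unadjusted p under 0.05 (21.9%) against 4.27% of genes (2.02% below 0): Hspa5, Hsp90b1, Sdf2l1, Pdia4, Pdia6, Manf and Sel1l. The difference was below 0 in all 7, so that C201R minus WT was lower in the titled males, with Hspa5 at -0.55 ± 0.22 and edgeR adjusted p = 0.966. Libraries 2 and 3 are 2 of the 3 titled C201R males and library 9 is a titled WT male. Of the libraries with disputed genotype, 4, 11 and 12 are titled females and only library 9 is a titled male. The difference between titled sexes therefore cannot be told apart from the dispute over the genotype labels. Given the Xist levels above, titled sex is not a safe label here. On simulated data, described below, 1.5-fold changes of this kind were recovered for 40% of changed genes.

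The rest of the ER quality control machinery was read from a list of 81 further genes. By name 0 of 81 were called by edgeR, where 0.715% of all genes were, and 13 had an unadjusted p under 0.05, where 12.8% of all genes did. By name 52 were lower, where 49.1% of all genes were, and the median log2 difference was -0.01. By title and in the undisputed libraries 0 were called, 51 and 49 were lower (49.3% and 47.9% of all genes), and the median was -0.01 in both. The 2 of lowest p by name were the p97 cofactor Nploc4 (-0.10 ± 0.03) and the collagen prolyl hydroxylase P4ha1 (-0.44 ± 0.13), both with edgeR adjusted p = 0.158. By the library number 8 of 81 were called, where 6.38% of all genes were. Prkcsh, Uggt1, P4ha1 and Ubxn6 were higher, with slopes of 0.023, 0.020, 0.053 and 0.015, and March6, Ssr3, Ero1l and Erlec1 were lower, with slopes of -0.022, -0.023, -0.019 and -0.014. Prkcsh and Uggt1 act in glycoprotein folding beside Calr and Canx, and Ssr3 is a partner of Ssr1 in the translocon-associated complex.

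The ATF4 arm downstream of PERK and of other eIF2 kinases is set beside the 32 members. By name 7 of its 22 genes were called, all higher in C201R, where 0.169% of all genes were called higher. Of the 22, 19 were higher, and the median was 0.16 where the 32 members had -0.06. The list was chosen with earlier results of these data known, so these counts are no independent support for a difference between the lists. The called genes were Fgf21, Gdf15, Slc7a1, Sesn2, Chac1, Atf5 and Atf4. Slc7a1, an arginine transporter, was by name at 86.6 ± 4.53 CPM in C201R against 67.1 ± 3.72 CPM in WT, and Atf4 itself at 94.7 ± 3.53 and 85.1 ± 4.82 CPM (SD, n = 6 each). Chac1, a glutathione-degrading enzyme, was by name at 7.72 ± 0.515 and 5.19 ± 0.401 CPM and Sesn2 at 25.0 ± 1.05 and 19.2 ± 0.956 CPM. Fgf21 ranged by name from 3.42 to 4.13 CPM in C201R, with at most 0.038 CPM in WT. Gdf15 ranged by name from 0.342 to 0.563 CPM in C201R, with at most 0.123 CPM in WT. Among the disputed libraries, Fgf21 was at 9.24 and 8.6 TPM in libraries 4 and 9, titled WT, and at 0 TPM in libraries 11 and 12, titled C201R. Atf5 was by name at 29.9 ± 1.88 and 25.2 ± 1.13 CPM. Among the undisputed libraries 3 of the 22 were called higher, Fgf21, Slc7a1 and Chac1, where 0.0338% of all genes were, and the median was 0.16. By title 0 of the 22 were called by edgeR, with 1 at an unadjusted p under 0.05 and a median of 0.07. No test of the difference between the lists was made.

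Cytosolic heat shock genes, which answer misfolding outside the ER, had 2 of 14 called by name, both lower, where 0.546% of all genes were called lower. Hspb1 averaged 18.8 ± 0.978 CPM in C201R against 29.2 ± 5.43 CPM in WT, and the co-chaperone Bag3 33.3 ± 2.11 and 44.4 ± 5.73 CPM (SD, n = 6 each). The median of the 14 by name was -0.14 and 13 were lower, where 49.1% of all genes were. Over the undisputed libraries edgeR called 0 of 14 with 11 at an unadjusted p under 0.05, all lower, where 6.96% of all genes were so. By title it called 0 of 14 with 10 at that level, all lower, where 3.28% of all genes were so. By the number 1 of the 14 was called, where 6.38% of all genes were. It was Hspa8, with a higher slope of 0.031 ± 0.0054 (edgeR adjusted p = 0.016).

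**Figure D5:**
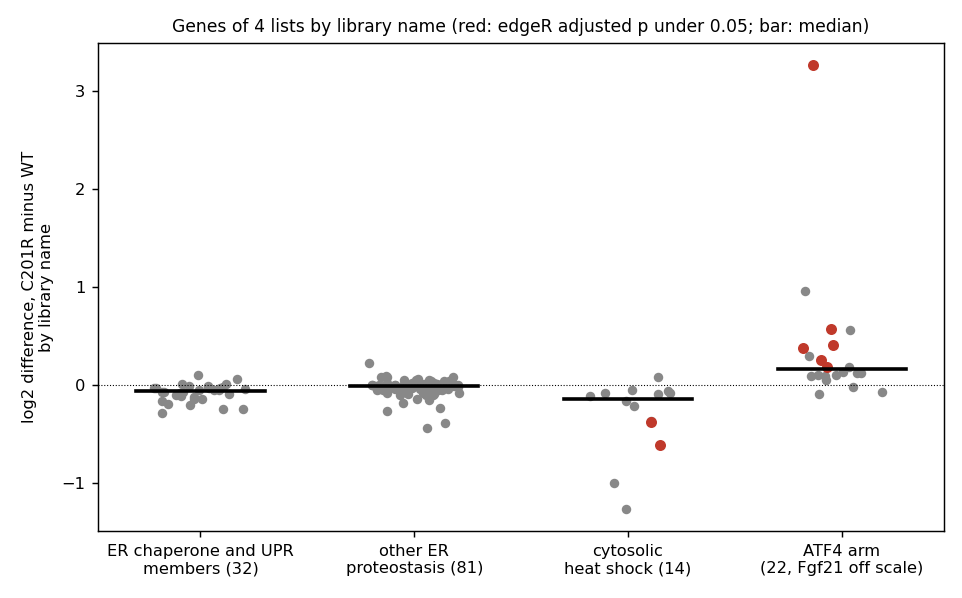
Points are edgeR log2 differences by library name for the genes of 4 lists, red where the adjusted p is under 0.05, with bars at the medians; Fgf21 is off scale. No point is red among the 32 members, whose median is -0.06, against 7 of 22 called in the ATF4 arm, whose median is 0.16. Of all genes 0.715% were called, and the lists were chosen with earlier results of these data known.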

How the data were processed

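Polyadenylated RNA of whole spinal cord was sequenced from stranded libraries, and 2 library kits are named in the labels' protocols without saying which library used which. Bowtie2 2.2.0 and RSEM 1.2.12 are named in the submitters' processing notes; genome build and annotation were not given in the sources used here. The authors deposited, per the file headers, an expected count per gene and a TPM from RSEM, which divides reads shared by several genes. The deposited TPM served for levels and 2 alternatives, and deposited FPKM values stayed unused.

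Expected counts were rounded to whole numbers, filtered with filterByExpr over the 4 titled groups (17765 of 38924 genes kept), scaled by TMM, and fitted in edgeR 4.0.16 (R 4.3.3; quasi-likelihood) with titled sex as a term. P-values were adjusted by Benjamini-Hochberg over all genes tested, at a threshold of 0.05. A called gene is one under it. The SE was derived from the log2 difference and its F statistic. Depth ran from 27175421 to 38271405 counts a library. Since no label says in words that libraries are different animals, the spread behind each p-value may be technical.

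The members and lists were chosen with earlier results of these data known. Members are described with every library's value where the unadjusted p was under 0.05 in a genotype comparison, and Hspa5, Hsp90b1, Xbp1, Herpud1, Atf6 and Ern1 in any case; from other lists the called genes, or the 2 of lowest p, are named. On simulated data of 17765 genes, 1.25-fold changes were recovered for 60% of changed genes by title, 62% by name, 22% in the undisputed libraries and 8% for the number, and 1.5-fold changes for 82%, 80%, 68% and 56%, with 8, 7, 9 and 7 false calls. For the difference between titled sexes 4% and 40% were recovered, with 3 false calls. Changes were placed only in genes with many counts. The simulation held no mt-Atp8 split, no other trend with the number and no disputed labels, so these shares may be too high for the real libraries. Alternatives were DESeq2 1.42.0, limma 3.58.1 with voom or on log2(TPM + 1) and log2(TPM + 0.1), RLE size factors, other filters and terms, and leaving out libraries. The mt-Atp8 alternatives, and the number without libraries 1 to 3, were added after seeing the data. Promoters were matched by symbol to RefSeq, and positions by gene ID to GENCODE M21 (96.62% of IDs).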

Additional observations from a re-analysis of the deposited data

Results flagged for a closer look

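In 8 of 192 groups of members' values 1 library stood apart from the rest of its group by Dixon's criterion, where chance gives about 1 in 20. Library 9 was highest among the C201R libraries by name for Pdia4 (62.1 CPM, the next at 48.9), Sdf2l1 (12.2 CPM, the next at 8.13) and Atf6 (61.2 CPM, the next at 58.3). Library 10 was highest among the undisputed C201R libraries for Hspa5 (254 CPM, the next at 198) and Hyou1 (112 CPM, the next at 102). Library 8 was highest among the undisputed WT libraries for Creld2 (12.3 CPM, the next at 9.76) and Derl3 (0.978 CPM, the next at 0.635). Library 4 was lowest among the libraries titled WT for Dnajc3 (73.1 CPM, the next at 85.5).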

How the results depend on the processing

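No paired analysis was possible because each library has a number of its own, so that no number is shared between groups. Depth limited Derl3 most, at 0.57 to 1.04 CPM. By title, 1 member was called by DESeq2 and 1 within the high mt-Atp8 set, and 0 when any 1 library was left out. By name, 1 was called by DESeq2, 1 with the library number as a term, 1 with the mt-Atp8 set as a term and 1 within the high set, and 0 to 1 when a library was left out. In the undisputed libraries 1 was called by DESeq2, 2 by voom and 0 to 1 when a library was left out (Hspa5 without library 10). For the number, 10 members became 4 without titled sex, 0 with the mt-Atp8 set as a term, 0 without libraries 1 to 3 and 0 within either set, and 3 (without library 9) to 11 (without library 6) when a library was left out. Limma on TPM called 15, against 10. The cause was not tested.

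The members' median log2 difference by title moved from -0.043 to 0.017 without libraries 1 to 3 and to 0.014 within the low set. By name it went from -0.059 to -0.023 without libraries 1 to 3, -0.027 with the number as a term and -0.019 and -0.020 with the 2 limma fits on TPM. In the undisputed libraries it moved from -0.082 to -0.040 with limma on log2(TPM + 1) and to -0.042 on log2(TPM + 0.1). With the 2 limma fits on TPM the median of all genes moved too. It was 0.031 and 0.036 by name, against 0.0023 in edgeR, and 0.040 and 0.045 in the undisputed libraries, against 0.0053. Signs turned by title for Hspa5 (0.10 without libraries 1 to 3, 0.062 within the low set) and Xbp1 (0.086 and 0.027). Slopes per number turned for Dnajc10 (0.0012 and 0.0013 with the 2 limma fits on TPM, 0.030 in the high set, 0.0045 in the low set), Derl1 (0.00062 and 0.00063 with limma, 0.014 in the high set), Edem3 (0.00073 with title genotype, 0.00075 with no genotype term, 0.011 in the high set), Ssr1 (0.0021 with the set as a term, 0.0024 in the low set) and Atf6b (-0.0041 in the high set). The median slope of all genes was 0.0096 and 0.011 with the 2 limma fits on TPM, against -0.00028 in edgeR.

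Counts over all genes moved too. By title 0 became 18 with DESeq2, 8 with the number as a term, 1 without libraries 1 to 3, 134 in the high set and 1 in the low set. By name 127 became 318 with DESeq2, 235 with the number as a term, 373 with the mt-Atp8 set, 41 and 42 with limma on TPM, 26 without libraries 1 to 3, 23 in the low set, and 54 to 221 when a library was left out. In the undisputed libraries 29 became 245 with DESeq2, 267 with voom, 91 with no filter, 12 with limma on TPM, 70 without titled sex, 14 with the number as a term, 127 with the mt-Atp8 set, and 5 to 119 when a library was left out. For the number 1134 became 2304 and 2297 with limma on TPM, 1718 with voom, 561 with title genotype, 299 with no genotype term, 68 without titled sex, 1 with the mt-Atp8 set, 0 without libraries 1 to 3, 0 and 1 within the sets, and 61 to 1708 when a library was left out.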
